A study of Mus musculus with 6 samples.

Results

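Glycolysis and oxygen-responsive genes were followed in primary mouse hepatocytes treated with TNF, a cytokine of inflammation. The set held 33 genes of the 19764 in the table, chosen by symbol: enzymes of glycolysis, a glucose and a lactate transporter, the oxygen-regulated factor Hif1a and genes known as its targets. It was drawn up with the TNF responses and the differences between replicate numbers in these libraries in view. Values of the members are therefore descriptions, and no count of members below is a test. Of the 33 genes, 31 had enough reads to be fitted, and Eno2 and Car9 did not.

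The cells were primary hepatocytes of Bl6/N mice, and polyA RNA was sequenced in 3 TNF and 3 Control libraries. After 16 h in starvation medium with 5 mM glucose, cells received 1 ng/ml TNF or, in Control, vehicle over 8 h. Both groups were given 1 µM corticosterone, which activates the glucocorticoid receptor, and 10 µM WY-14643, which activates PPARα, so each comparison is within a fasting-like hormone state. The labels number the libraries 1 to 3 in each group and do not say whether a number stands for an animal, a culture or a day. p-values then measure only the spread between these samples, which may be technical.

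Glycolysis converts glucose to pyruvate in the cytosol, and lactate dehydrogenase turns pyruvate to lactate when the mitochondria do not take it up. Hypoxia-inducible factor, a dimer of an oxygen-regulated alpha subunit and ARNT, activates most of the genes of this pathway together with genes of blood vessel growth, mitophagy and collagen modification. In the presence of oxygen the prolyl hydroxylases mark the alpha subunit for degradation, and a pair of these, Egln1 and Egln3, are themselves targets of the factor. Hepatocytes in the liver use other isoforms for several of these steps (among them Slc2a2 and Pklr), and the general isoforms tend to appear when hepatocytes are cultured.

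Gene coordinates are those of the authors' table (mm10), counted from base 1. Libraries held between 17612060 and 25114289 reads over genes. Levels are CPM (read counts scaled to library size by the authors), and a count of 0 allows up to 3 reads, or 0.124 to 0.166 CPM depending on the library. Changes are differences of TNF minus Control after log2(CPM + 1), so that fold changes of weakly expressed genes come out too small, and stand with the SE of a limma fit over 12293 tested genes in which the replicate number is a block. A gene is said to have risen or fallen where its adjusted p (Benjamini-Hochberg) was under 0.05 in that fit, as it was for 20.6% of all tested genes. Markers of the labelled cell type were abundant: 8 hepatocyte markers together took 28522, 43740 and 44972 CPM in TNF libraries 1 to 3 and 29907, 49654 and 48476 CPM in Control libraries 1 to 3. The TNF response was measurable, and all 6 of the control genes Ccl2, Icam1, Tnfaip3, Relb, Nfkb2 and Nfkbia rose.

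With TNF the set as a whole stayed close to its Control level, and a few members moved by less than 1.5-fold. Slc2a1, Egln3 and Pkm rose, which is 3 of 31 tested members (9.68%) beside 9.4% of all tested genes. Pfkm, Mxi1, Bnip3 and Egln1 fell, which is 4 of 31 (12.9%) beside 11.2% of all tested genes. The median change was 0.01 over the members and -0.01 over all tested genes, and the median absolute change was 0.10 over the members and 0.09 over all tested genes. In this fit the changes of the members ran between -0.28 for Pfkm and 0.40 for Slc2a1. Which member lay at the ends varied with the setting: Hk2 was at 0.41 and Slc2a1 at 0.39 with limma-voom, and Ankrd37 was at -0.33 and Pfkm at -0.29 with a pseudocount of 0.1.

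The calls rest on the comparison within same-numbered libraries. Without the replicate block, limma called 0 of the 31 members, with 0 at an unadjusted p under 0.05, beside 0.431% of all tested genes. The TNF and Control values of every one of the 31 members overlapped, whereas the groups did not overlap in 13.3% of all tested genes. limma-voom on the recovered reads, with the block, called 3 members higher and 4 lower, beside 1156 and 1364 of all 12293 tested genes. Without the replicate 2 libraries 8 members were called higher (Hk2, Pfkp, Pfkfb3, Pkm, Slc2a1, Adm, Kdm3a and Egln3) and 2 lower (Bnip3 and Mxi1). In that setting 848 of all 12293 tested genes were called higher and 933 lower.

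**Figure D1:**
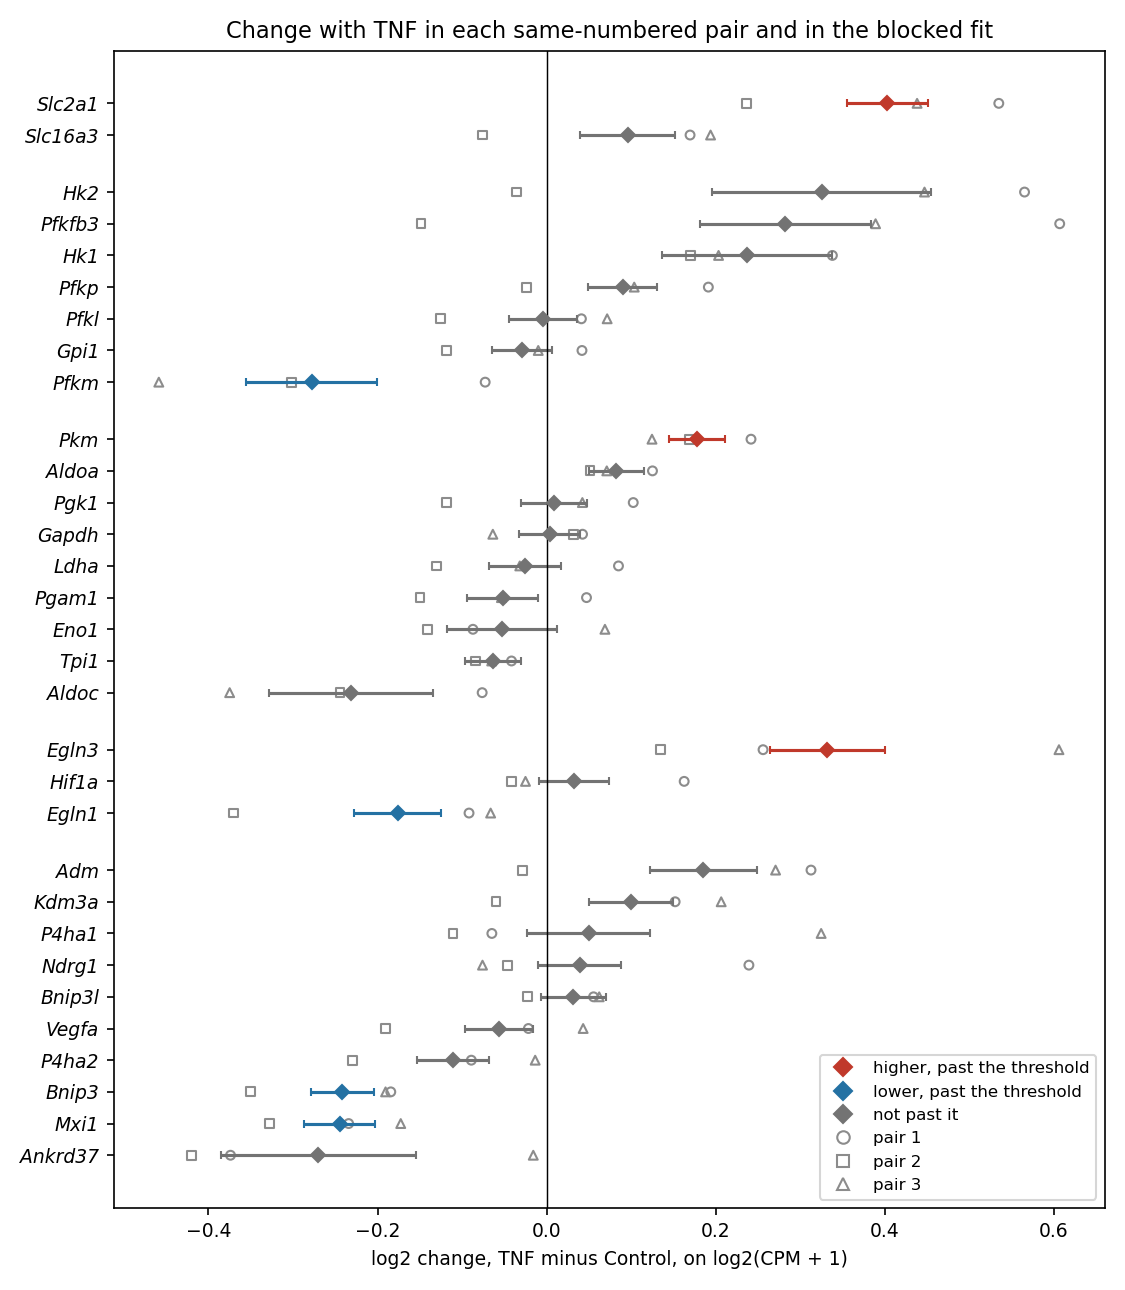
Log2 change of TNF minus Control for the 31 tested members, grouped by role, with the changes of pairs 1, 2 and 3 as open symbols and the estimate of the blocked fit as a diamond with its SE. The estimates lie between -0.28 (Pfkm) and 0.40 (Slc2a1), with 3 members past the threshold above 0 and 4 below it.

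The regulatory DNA near the starts of these genes was examined for the core of the hypoxia-response element, the sequence that hypoxia-inducible factor binds. The core was searched as ACGTG and as GCGTG on both strands of RefSeq promoter windows (GRCm38.p6) that run from 250 bases before to 50 bases after a start. The 250 bases before the start are shown for 6 members: Slc2a1, Egln3, Bnip3 and Egln1, which passed the threshold for TNF and differed by at least 2-fold between replicate numbers, Slc16a3, which differed most between replicate numbers, and Ldha, the most abundant member per kb of exon. The windows lie at chr4:119108495-119108744 on the plus strand (Slc2a1), chr12:54203875-54204124 on the minus strand (Egln3), chr7:138909507-138909756 on the minus strand (Bnip3), chr8:124949255-124949504 on the minus strand (Egln1), chr11:120948817-120949066 on the plus strand (Slc16a3) and chr7:46845554-46845803 on the plus strand (Ldha). The window of Slc16a3 lies inside the gene span of the table, and the others end at the base before the gene. Each sequence reads 5′ to 3′ toward the start of transcription, and capitals mark matches to either core on either strand (a match on the other strand reads CACGT or CACGC).
Slc2a1: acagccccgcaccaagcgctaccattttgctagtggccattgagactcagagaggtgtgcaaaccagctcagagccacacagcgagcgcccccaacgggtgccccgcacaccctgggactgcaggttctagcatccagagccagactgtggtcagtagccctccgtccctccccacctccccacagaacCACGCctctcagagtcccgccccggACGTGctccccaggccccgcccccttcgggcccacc
Egln3: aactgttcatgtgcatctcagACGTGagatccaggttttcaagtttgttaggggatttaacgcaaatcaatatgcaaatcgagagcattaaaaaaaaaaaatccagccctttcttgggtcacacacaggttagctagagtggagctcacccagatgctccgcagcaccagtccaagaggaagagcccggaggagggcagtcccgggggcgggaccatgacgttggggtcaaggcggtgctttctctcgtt
Bnip3: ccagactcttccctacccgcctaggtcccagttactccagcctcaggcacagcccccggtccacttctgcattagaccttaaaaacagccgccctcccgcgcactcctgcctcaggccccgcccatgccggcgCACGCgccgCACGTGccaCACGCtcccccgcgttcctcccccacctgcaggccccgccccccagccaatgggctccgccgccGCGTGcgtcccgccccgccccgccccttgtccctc
Egln1: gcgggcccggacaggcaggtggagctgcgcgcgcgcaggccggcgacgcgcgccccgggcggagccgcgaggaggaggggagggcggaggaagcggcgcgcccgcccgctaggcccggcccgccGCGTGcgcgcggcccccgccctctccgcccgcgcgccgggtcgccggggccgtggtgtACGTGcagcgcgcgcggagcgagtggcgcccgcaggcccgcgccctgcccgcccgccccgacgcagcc
Slc16a3: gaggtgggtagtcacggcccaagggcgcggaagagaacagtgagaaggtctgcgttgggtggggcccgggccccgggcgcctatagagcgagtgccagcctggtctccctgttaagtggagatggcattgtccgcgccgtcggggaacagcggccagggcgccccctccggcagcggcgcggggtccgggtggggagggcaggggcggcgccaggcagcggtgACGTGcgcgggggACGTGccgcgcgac
Ldha: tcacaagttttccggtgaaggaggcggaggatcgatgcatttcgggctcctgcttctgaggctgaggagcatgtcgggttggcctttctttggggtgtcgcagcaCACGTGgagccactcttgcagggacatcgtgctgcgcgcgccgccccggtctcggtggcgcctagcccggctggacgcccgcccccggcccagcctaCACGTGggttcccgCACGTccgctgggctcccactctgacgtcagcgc

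Slc2a1 carried 1 match to ACGTG, at position -36 from the start, and 1 to GCGTG. Slc16a3 carried 2 matches to ACGTG close to the start, at -27 and -14. Bnip3 held both kinds, and its ACGTG sits in CACGTG, which is also the E-box of the Myc family and counts as 2 matches because it holds the core on both strands. Ldha had 2 such E-boxes and 1 further ACGTG before the start, and 2 matches to GCGTG after it. Egln3 had a single match, at -229.

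RefSeq windows were found for 31 of the 33 members, Bnip3l and Ndrg1 being the other two, and several genes had more than 1 window. ACGTG was present for 23 of the 31 members (74.2%), for 21.8% of 27025 genes with a window and for 29.3% of the tested genes with a window. GCGTG was present for 19 members (61.3%), beside 35.2% of all genes and 55.9% of tested genes. CACGTG was present for 5 members (16.1%), beside 8.09% of all genes and 11.8% of tested genes. A gene counts here if any of its windows held a match. By single window, ACGTG was in 56.25% of 48 member windows and 19.6% of all 32851 windows. GCGTG was in 50% and 32.4% of these, and CACGTG in 10.4% and 7.15%. No window of Gpi1, Tpi1 or Eno2 held either core. A match is a description of the letters in this window only, and no binding was measured here.

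**Figure D2:**
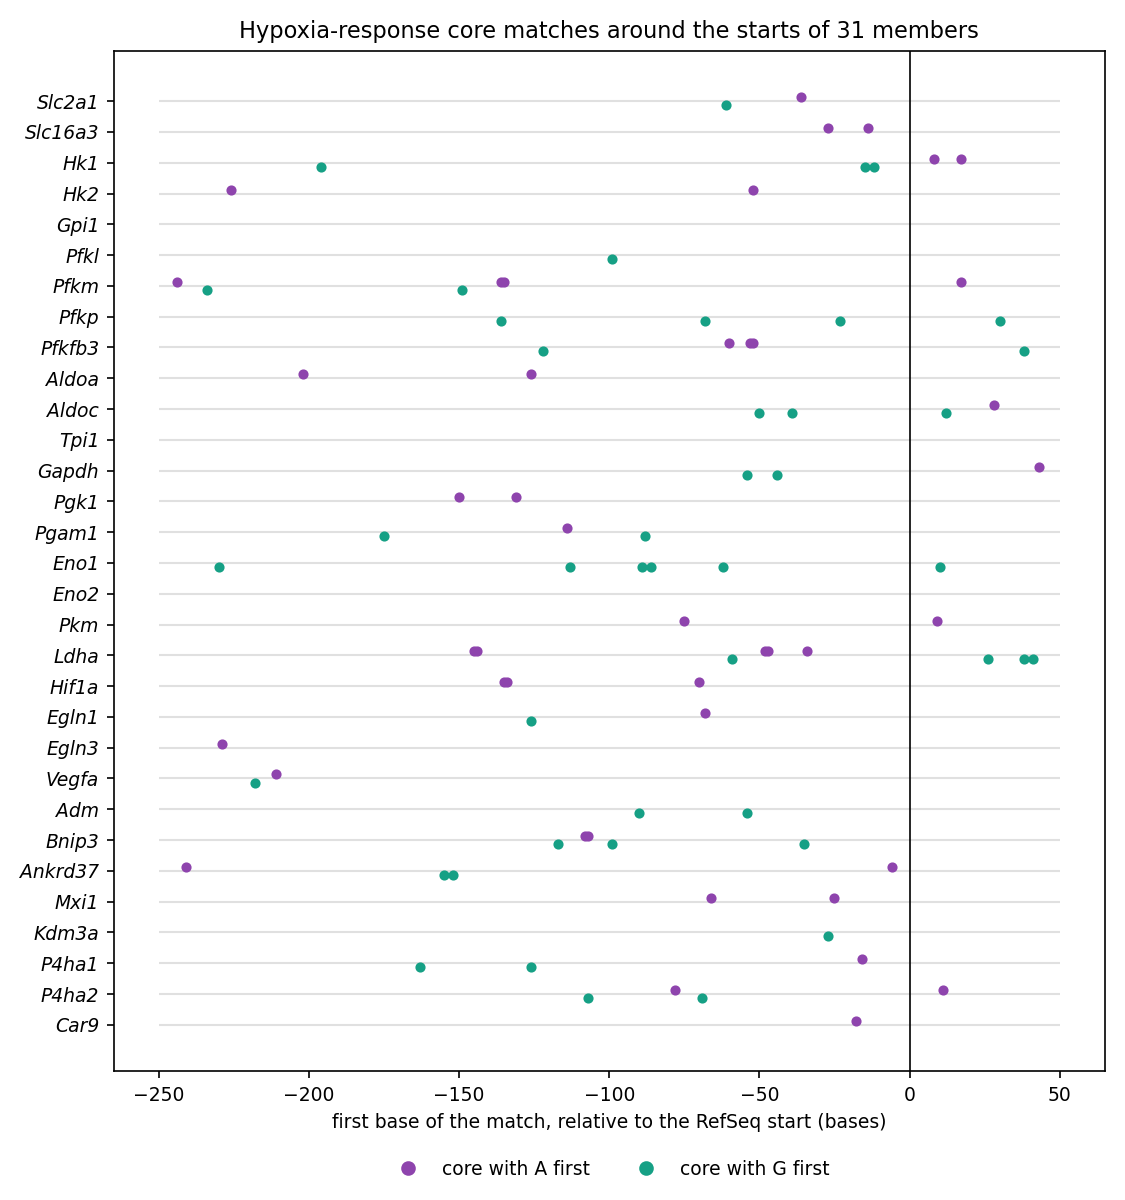
First base of each match to the hypoxia-response core, in bases from the RefSeq start, for the 31 members with a promoter window; lines span the window, and matches of several windows of a gene share its line, each measured from its own start. Matches with A first were found for 23 of the 31 members and lie mostly before the start.

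Slc2a1 (NM_011400, chr4:119108745-119137329), the general glucose transporter GLUT1, was higher with TNF in each pair. It had 96.2, 180.4 and 254 CPM in TNF replicates 1, 2 and 3, against 66.1, 153 and 188 CPM in Control replicates 1, 2 and 3. The TNF library was above the Control library of the same number each time, while the groups overlapped, with the replicate 1 library low in both. Slc2a1 rose by 0.40 ± 0.05, with pair changes of 0.53, 0.24 and 0.44.

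Slc16a3 (NM_030696, chr11:120948484-120959000), the monocarboxylate transporter MCT4 that exports lactate, is given in full, a choice made after its values were seen, because it differed most between replicate numbers. It had 21.9, 59.1 and 108 CPM in TNF replicates 1, 2 and 3, against 19.3, 62.3 and 94.4 CPM in Control replicates 1, 2 and 3. Its TNF values were higher in pairs 1 and 3 and lower in pair 2, its change was 0.10 ± 0.06, and it did not pass the threshold.

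Among the enzymes of upper glycolysis, which spend ATP to prime the sugar, 1 of 7 tested members passed, and it fell. Pfkm (NM_001163488, chr15:98092589-98132447), the muscle-type phosphofructokinase, had 26.9, 18.7 and 18.5 CPM in TNF replicates 1, 2 and 3, against 28.3, 23.2 and 25.8 CPM in Control replicates 1, 2 and 3. It was lower with TNF in every pair, least in pair 1, and its TNF replicate 1 exceeded all but the highest Control library. Pfkm fell by 0.28 on the log2 scale (SE 0.08), with pair changes of -0.07, -0.30 and -0.46, and it lost the call without replicate 2, without replicate 3 and without the filter on low genes.

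The other two phosphofructokinases were more abundant and did not pass. Pfkl, the liver type (NM_008826, chr10:77986949-78009796), had 96.5, 224 and 258 CPM in TNF libraries 1 to 3 and 93.7, 245 and 245 CPM in Control libraries 1 to 3. Pfkp, the platelet type (NM_019703, chr13:6579874-6648771), had 109, 154 and 217 CPM in TNF libraries 1 to 3 and 95.2, 156 and 202 CPM in Control libraries 1 to 3. Both were low in the replicate 1 libraries of both groups, and their changes were 0.00 ± 0.04 for Pfkl and 0.09 ± 0.04 for Pfkp. Per kb of exon, Pfkl made up 53.1 ± 8.16% of the phosphofructokinase level with TNF and 53.6 ± 7.73% in Control (SD, n = 3 each). Pfkp made up 38.8 ± 3.77% with TNF and 36.8 ± 3.40% in Control, and Pfkm 8.07 ± 5.14% with TNF and 9.60 ± 5.22% in Control. These shares depended on the length used. Per kb of counted length, Pfkl made up 73.0 ± 7.06% with TNF and 73.2 ± 6.59% in Control. Pfkp made up 21.1 ± 3.26% with TNF and 19.9 ± 2.82% in Control by that length.

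The hexokinases Hk1 (NM_010438, chr10:62268855-62379908) and Hk2 (NM_013820, chr6:82725027-82774454), which phosphorylate glucose with high affinity, were among the lowest members. Hk1 had 7.94, 5.53 and 11.6 CPM in TNF libraries 1 to 3 and 6.08, 4.80 and 9.93 CPM in Control libraries 1 to 3. Hk2 had 4.40, 3.65 and 10.6 CPM in TNF libraries 1 to 3 and 2.65, 3.76 and 7.54 CPM in Control libraries 1 to 3. Hk1 was above its Control partner in every pair and Hk2 in pairs 1 and 3. Neither passed, with changes of 0.24 ± 0.10 for Hk1 and 0.33 ± 0.13 for Hk2, and Hk2 passed when the replicate 2 libraries were left out. Which of these genes was the more abundant depended on the length used: Hk1 made up 57.8 ± 6.27% of their summed level with TNF and 59.8 ± 7.71% in Control per kb of exon, but 41.2 ± 6.15% with TNF and 43.3 ± 8.12% in Control per kb of counted length.

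Gpi1, the phosphoglucose isomerase that follows hexokinase, ranged over 563 to 755 CPM with TNF and 547 to 788 CPM in Control and changed by -0.03. Pfkfb3, which makes the fructose 2,6-bisphosphate that activates phosphofructokinase, ranged over 25.5 to 58.3 CPM with TNF and 16.4 to 44.3 CPM in Control. Pfkfb3 was higher with TNF in pairs 1 and 3 and lower in pair 2, its change was 0.28 ± 0.10, and it passed under median-of-ratios scaling and without the replicate 2 libraries, but not in the blocked fit itself.

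In lower glycolysis, which yields ATP and pyruvate, 1 of 9 tested members passed, and it rose. Pkm (NM_011099, chr9:59656368-59679375), the pyruvate kinase of most tissues other than liver, had 484, 597 and 878 CPM in TNF replicates 1, 2 and 3, against 409, 531 and 805 CPM in Control replicates 1, 2 and 3. Each TNF library exceeded the Control library of the same number by a similar margin, and the groups overlapped. Pkm rose by 0.18 ± 0.03, with pair changes of 0.24, 0.17 and 0.12. It kept the call in all 11 alternatives that had the block.

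The aldolases split fructose 1,6-bisphosphate, and Aldoa is the general and Aldoc the brain-type form. Aldoa (NM_001177308, chr7:126795234-126800447) had 736, 972 and 1155 CPM in TNF libraries 1 to 3 and 675, 938 and 1099.6 CPM in Control libraries 1 to 3. Aldoc (NM_001303423, chr11:78323073-78327778) had 8.28, 8.16 and 10.1 CPM in TNF libraries 1 to 3 and 8.78, 9.85 and 13.3 CPM in Control libraries 1 to 3. Aldoa was higher and Aldoc lower with TNF in every pair, and neither passed, with changes of 0.08 ± 0.03 for Aldoa and -0.23 ± 0.10 for Aldoc.

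Gapdh (NM_001289726, chr6:125161852-125166467), which oxidises glyceraldehyde 3-phosphate and often serves as a reference gene, had 1329.9, 1369 and 1443 CPM in TNF libraries 1 to 3 and 1291, 1339 and 1508 CPM in Control libraries 1 to 3. Ldha (NM_010699, chr7:46845804-46855627), the lactate dehydrogenase subunit that favours lactate formation, had 1599, 1826 and 2701 CPM in TNF libraries 1 to 3 and 1508, 1999 and 2762 CPM in Control libraries 1 to 3. Gapdh was close in every library, while Ldha was highest in replicate 3 and lowest in replicate 1 of both groups. Their changes were 0.00 ± 0.04 for Gapdh and -0.03 ± 0.04 for Ldha, and both changed sign between pairs.

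Tpi1, which interconverts the triose phosphates, ranged over 1102 to 1509 CPM with TNF and 1134 to 1579 CPM in Control and was lower with TNF in every pair without passing (-0.06 ± 0.03). Pgk1 and Pgam1, the kinase and mutase of the 3-carbon acids, changed by 0.01 and -0.05. For the enolases, Eno1 (NM_023119, chr4:150237197-150248873) had 22.3, 26.9 and 31.4 CPM in TNF libraries 1 to 3 and 23.8, 29.7 and 29.9 CPM in Control libraries 1 to 3, and Eno2 (NM_013509, chr6:124760053-124769673), the neuronal form, stayed under 1 CPM in every library, at 0.909, 0.429 and 0.246 CPM with TNF and 0.331, 0.290 and 0.438 CPM in Control. The Eno1 values come from 127 of the 11677 bases of the gene, for a reason that is not known here, so they say little of its level. Gapdh, Ldha, Eno1, Pgk1, Tpi1 and Aldoa have near-identical copies elsewhere in the mouse genome, and the sources used here do not say how reads shared with them were counted, so their levels are uncertain.

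Per kb of exon the most abundant members were Ldha, with 779 ± 222 CPM per kb with TNF and 797 ± 241 CPM per kb in Control, Tpi1, with 741 ± 115 with TNF and 776 ± 127 in Control, and Gapdh, with 746 ± 31.0 with TNF and 745 ± 61.5 in Control (SD, n = 3 each). The order of these 3 differed between libraries, and per kb of counted length Tpi1 and Gapdh ranked above Ldha. Reads from introns are included in these levels. Aldoa followed, with 315 ± 69.4 CPM per kb with TNF and 299 ± 70.8 CPM per kb in Control. Pgk1 and Gpi1 came next and were below Aldoa in each of the 6 libraries. Hk1 and Hk2 were lowest of the tested members, with 1.34 ± 0.488 and 1.04 ± 0.643 CPM per kb with TNF and 1.11 ± 0.427 and 0.780 ± 0.430 CPM per kb in Control.

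Of the 3 members of oxygen sensing, Egln3 rose, Egln1 fell and Hif1a did not pass. Egln3 (NM_028133, chr12:54178981-54203874), the prolyl hydroxylase PHD3, had 31.4, 83.3 and 151 CPM in TNF replicates 1, 2 and 3, against 26.1, 75.8 and 99.1 CPM in Control replicates 1, 2 and 3. The TNF library was the higher of each pair, most clearly in pair 3, and TNF replicate 3 stood above every other library. Egln3 rose by 0.33 ± 0.07, with pair changes of 0.26, 0.13 and 0.61. Without the replicate 3 libraries its change was 0.20, and it was still called.

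Egln1 (NM_053207, chr8:124908587-124949254), the prolyl hydroxylase PHD2 that sets the normal level of the alpha subunit, had 62.5, 125 and 141 CPM in TNF replicates 1, 2 and 3, against 66.7, 162 and 147 CPM in Control replicates 1, 2 and 3. It was lower with TNF in each pair, most in pair 2, where its change was -0.37. Egln1 fell by 0.18 on the log2 scale (SE 0.05). Without the replicate 2 libraries its change was -0.08 and the call was lost (limma, adjusted p = 0.308).

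Hif1a (NM_010431, chr12:73907867-73947530), the alpha subunit itself, had 166, 163 and 155 CPM in TNF libraries 1 to 3 and 149, 168 and 158 CPM in Control libraries 1 to 3. The libraries lay within a narrow range in both groups, and the change was 0.03 ± 0.04. Its protein, which is the oxygen-regulated product, was not measured.

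Of the 10 tested members among the other targets, 2 fell, 0 rose and 8 did not pass. Bnip3 (NM_009760, chr7:138890836-138909506), a receptor for the removal of mitochondria by autophagy, had 118, 305 and 420.5 CPM in TNF replicates 1, 2 and 3, against 135, 389 and 480.0 CPM in Control replicates 1, 2 and 3. Each TNF library was below its Control partner, within a spread between numbers that was far larger. Bnip3 fell by 0.24 on the log2 scale (SE 0.04), with pair changes of -0.18, -0.35 and -0.19. Its relative Bnip3l (NM_009761, chr14:66985240-67008877) had 69.2, 101 and 114 CPM in TNF libraries 1 to 3 and 66.5, 102 and 109 CPM in Control libraries 1 to 3, and did not pass (0.03 ± 0.04).

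Mxi1 (NM_001008542, chr19:53310506-53375810), a partner of MAX that opposes Myc, had 62.3, 76.7 and 88.0 CPM in TNF replicates 1, 2 and 3, against 73.5, 96.5 and 99.3 CPM in Control replicates 1, 2 and 3. It was lower with TNF in each pair, with changes of -0.23, -0.33 and -0.17. Mxi1 fell by 0.24 on the log2 scale (SE 0.04), and like Slc2a1, Pkm and Bnip3 it was called in all 11 alternatives with the block.

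Vegfa (NM_001025250, chr17:46016993-46032377), the growth factor of blood vessels, had 188, 357 and 398 CPM in TNF libraries 1 to 3 and 191, 408 and 386 CPM in Control libraries 1 to 3. Both replicate 1 libraries were low and the others were close to each other, and the change was -0.06 ± 0.04. The collagen prolyl hydroxylases, which modify procollagen chains, did not pass: P4ha1 (NM_011030, chr10:59323296-59373304) had 28.5, 45.3 and 57.9 CPM in TNF libraries 1 to 3 and 29.8, 49.0 and 46.0 CPM in Control libraries 1 to 3, and its change was 0.05 ± 0.07. P4ha2 (NM_011031, chr11:54100924-54131667) had 72.1, 127 and 146 CPM in TNF libraries 1 to 3 and 76.7, 149.6 and 147 CPM in Control libraries 1 to 3, and its change was -0.11 ± 0.04.

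The remaining members did not pass. Adm, the vasodilator adrenomedullin, ranged over 38.5 to 60.9 CPM with TNF and 30.8 to 50.3 CPM in Control with a change of 0.19 ± 0.06. Ankrd37 ranged over 2.20 to 9.86 CPM with TNF and 3.15 to 9.98 CPM in Control and was lower with TNF in every pair (-0.27 ± 0.12). Kdm3a, a histone demethylase that needs oxygen, changed by 0.10, and Ndrg1, a stress-responsive gene, by 0.04. Car9, a carbonic anhydrase that is very low in tissues with normal oxygen, had 0.383, 0.0537 and 0.197 CPM with TNF and 0.442, 0.290 and 0.292 CPM in Control and was not tested.

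**Figure D3:**
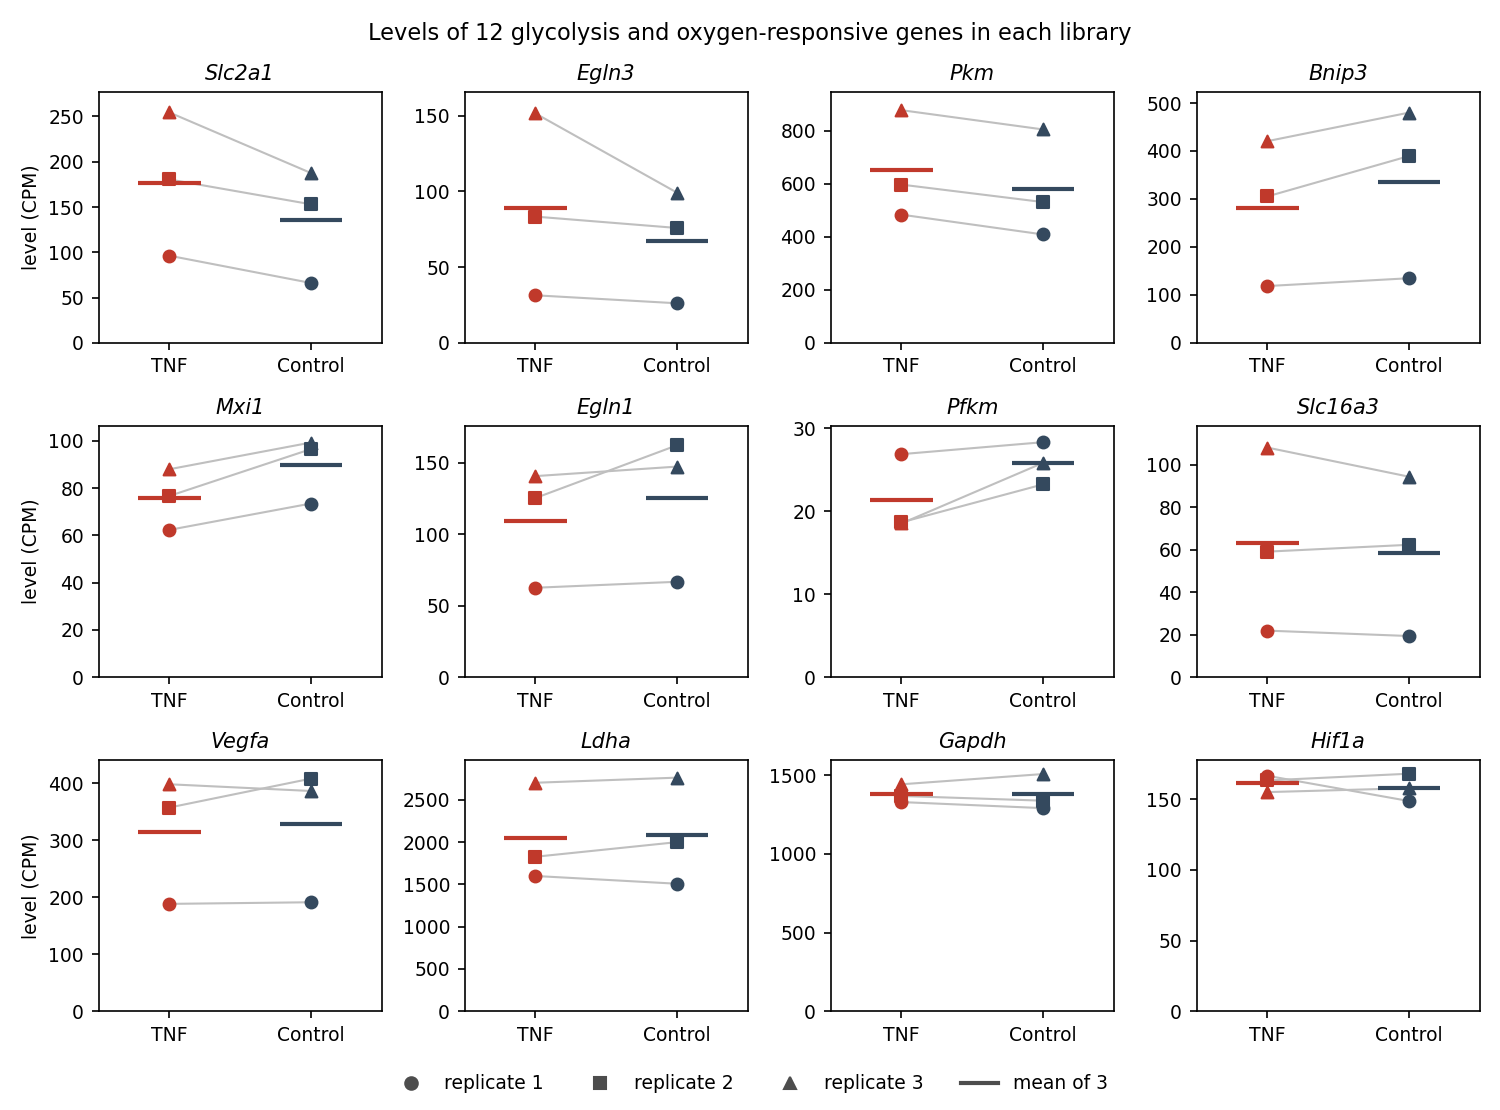
Level in CPM of 12 members in each TNF (left) and Control (right) library, with grey lines joining libraries of the same number and bars at the mean of 3. For Slc2a1 every line falls toward Control and for Bnip3 every line climbs toward it, while the replicate 1 libraries are lowest for all 12 except Pfkm and, with TNF, Hif1a.

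For all 31 tested members the range between replicate numbers was larger than the change with TNF, with a median range of 0.81 over the members and 0.25 over all tested genes. In the same fit, 30 of the 31 tested members, all but Hif1a, differed between the numbers at an adjusted p of 0.05, beside 53.5% of all tested genes. Replicate 1 was the lowest library of both groups for 26 members (83.9%), beside 22.7% of all tested genes. The median difference over the members was 0.44 for replicate 2 minus replicate 1 and 0.80 for replicate 3 minus replicate 1, while over all tested genes it was 0.01 and -0.01. The rule for the set mentions these differences, so the counts describe it and test nothing.

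For 8 members both other numbers lay at least 2-fold above replicate 1, beside 0.268% of all tested genes. Slc16a3 was the farthest, with differences of 1.52 for replicate 2 minus replicate 1 and 2.24 for replicate 3 minus replicate 1. Egln3 followed with 1.44 and 2.06 for the same differences, and Bnip3 with 1.44 and 1.82. The others were Pfkl, Ankrd37, Egln1, Slc2a1 and Vegfa. Of the 30 members that differed between numbers Gapdh did so least, with 0.05 and 0.17. Of the tested members, Pfkm alone was highest in replicate 1 of both groups.

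Markers of cell types also moved with the replicate number. The sum over hepatocyte markers was lowest in replicate 1 of both groups, and all 8 of them differed between numbers. Most of this sum was Alb, at 23427 CPM in TNF replicate 1 and 23456 CPM in Control replicate 1, and not every marker followed it: Hnf4a was highest in replicate 1 of both groups, and Ttr was lowest in replicate 2 of both groups. The sum over 10 endothelial markers was 84.6, 100.2 and 159.7 CPM in TNF libraries 1 to 3 and 89.9, 107 and 169 CPM in Control libraries 1 to 3. Macrophage markers summed to 147 to 234 CPM with TNF and 144 to 232 CPM in Control, nearly all of it Cd68, with only 1 of 13 markers passing the filter on low genes. Stellate cell markers summed to 20.5 to 47.2 CPM with TNF and 19.4 to 69.6 CPM in Control. Most of this was Reln, which fell with TNF by 0.38. Cholangiocyte markers summed to 32.5 to 54.5 CPM with TNF and 25.5 to 35.2 CPM in Control. Most of this was Sox9, which rose with TNF by 0.58 ± 0.08, while Krt19, Krt7 and Cftr were too low to be tested. Lymphocyte and neutrophil markers stayed under 1 CPM in all libraries, with Cd3g, Nkg7, Ly6g and Mpo at 0. Erythroid markers summed to at most 22.1 CPM in either group, all of it Alas2, with Hbb-bs, Hba-a1 and Hba-a2 at 0. The part of other cell types in the differences between numbers was not tested, and in bulk samples fewer cells of a type and less RNA per cell cannot be told apart.

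**Figure D4:**
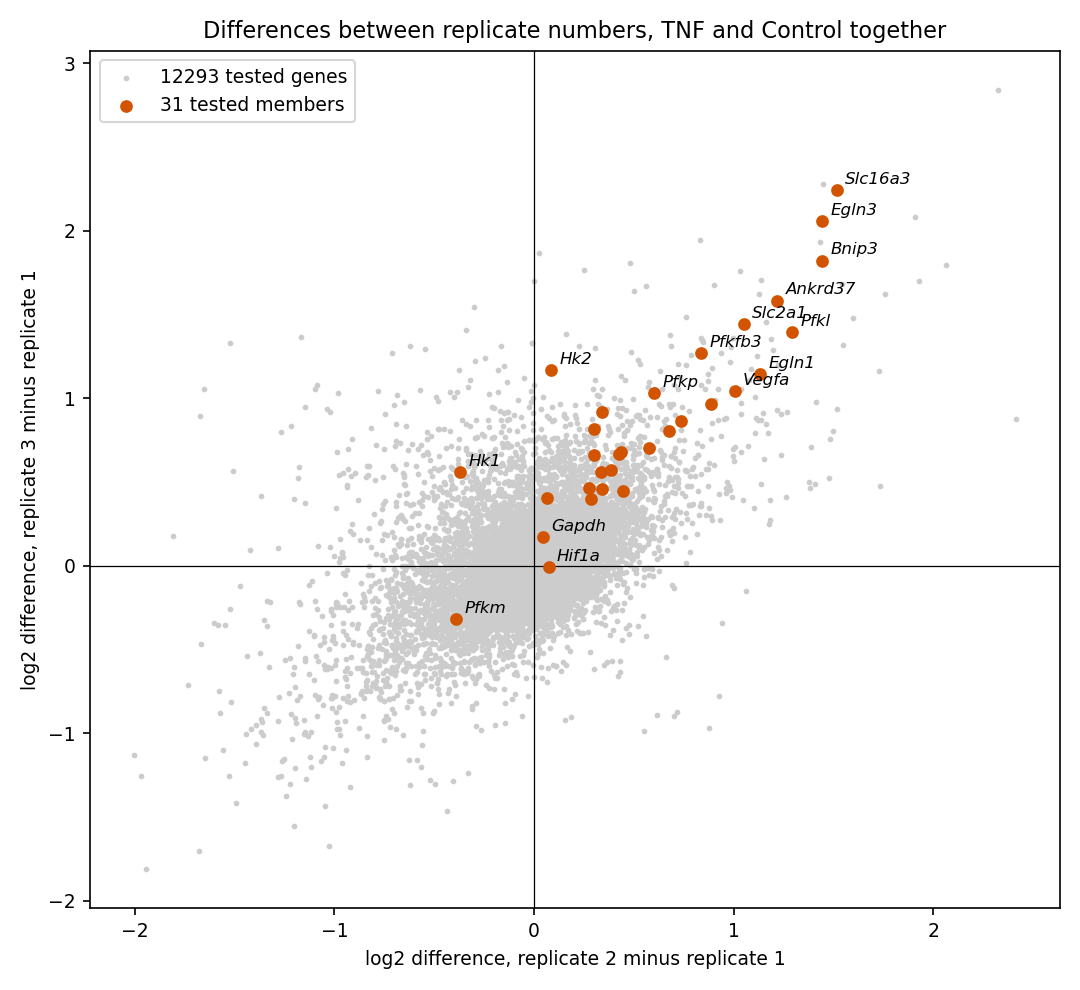
Log2 difference of replicate 2 minus replicate 1 (horizontal) and of replicate 3 minus replicate 1 (vertical) from the fit over both groups, for 12293 tested genes in grey and the 31 tested members in orange. The members lie mostly above 0 on both axes, out to 1.52 and 2.24 for Slc16a3, while the grey cloud is centred near 0.

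The 3 pairs also differed in how the members moved with TNF. In pair 1, 20 members were higher and 11 lower with TNF, with a median change of 0.06. In pair 2, 6 were higher and 25 lower, with a median of -0.11, and in pair 3, 17 were higher and 14 lower, with a median of 0.04. Over all tested genes the medians were -0.01 in pair 1, -0.02 in pair 2 and -0.0004 in pair 3. Of these genes 46.7% were higher with TNF in pair 1, 45.6% in pair 2 and 49.9% in pair 3. A total of 13 members had the same sign in all 3 pairs, 5 higher and 8 lower, which is 41.9% beside 51.1% of all tested genes.

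Several liver-type isoforms fell with TNF. Of 18 further glycolysis and fructose genes, not all of them liver-type, 16 were tested. Of these 2 rose and 10 fell, beside 9.4% and 11.2% of all tested genes, with a median change of -0.22. Of the 8 hepatocyte markers 0 rose and 4 fell with TNF, between -1.43 for Cps1 and -0.11 for Ttr, and their part in the lower levels of the liver-type genes was not tested. Slc2a2, the liver glucose transporter GLUT2, fell by 1.06 on the log2 scale (SE 0.07), with 18.1 ± 2.40 CPM with TNF and 39.4 ± 8.37 CPM in Control. Pfkfb1, the liver counterpart of Pfkfb3, fell by 0.53, while Pklr, the liver pyruvate kinase, rose by 0.50 ± 0.06.

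With Slc2a1 higher and Slc2a2 lower, Slc2a1 made up 90.0, 94.5 and 95.1% of their summed level per kb of exon in TNF libraries 1 to 3, and 77.1, 86.2 and 86.1% in Control libraries 1 to 3. The groups did not overlap in this share. Nor did they in Slc2a2, at 16.5 to 20.9 CPM with TNF and 31.2 to 47.9 CPM in Control. In Slc2a1 itself they overlapped. Pkm made up 77.9 ± 4.52% of the pyruvate kinase level per kb of exon with TNF and 81.3 ± 5.71% in Control, and there the groups overlapped (SD, n = 3 each). Per kb of counted length, the mean share of Slc2a1 was 90.2% with TNF and 76.9% in Control. That of Pkm was 66.9% with TNF and 71.5% in Control by the same length. Differences between a member's change and its counterpart's were not tested.

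**Figure D5:**
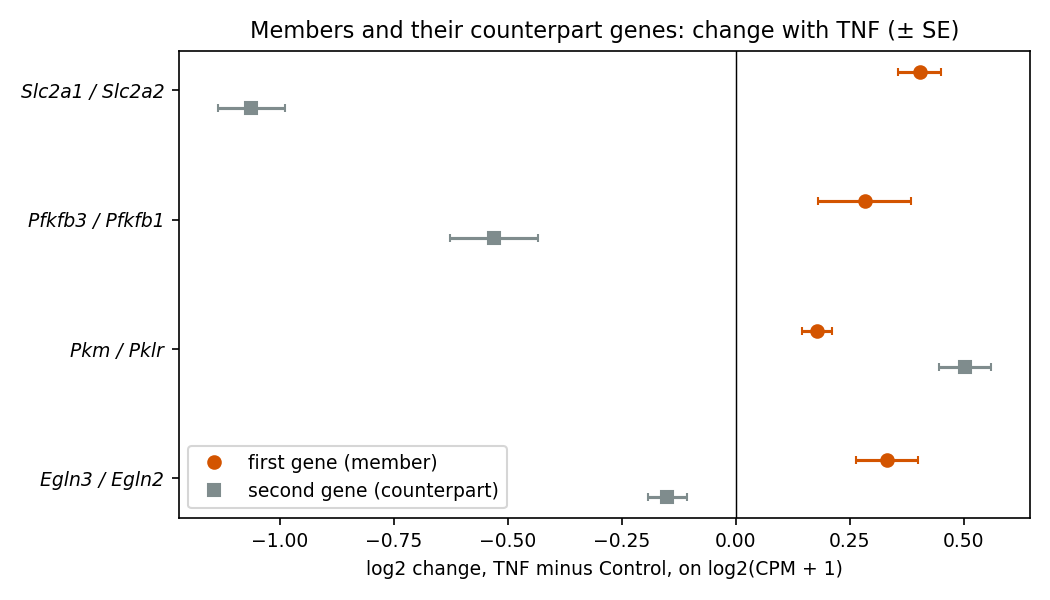
Log2 change of TNF minus Control with its SE for 4 members (circles) and the liver-type or related gene beside each (squares). The squares lie between -1.06 (Slc2a2) and -0.15 (Egln2), except Pklr at 0.50, and the circles lie between 0.18 (Pkm) and 0.40 (Slc2a1).

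Part of the oxygen-sensing machinery outside the set fell. Of 15 genes tested 0 rose and 4 fell, beside 9.4% and 11.2% of all tested genes, with a median change of -0.03. Epas1, the alpha subunit HIF2α, had 56.1 ± 3.65 CPM with TNF and 79.2 ± 4.72 CPM in Control (SD, n = 3 each) and fell by 0.49 on the log2 scale (SE 0.05). Cited2, a competitor for the coactivator of the factor, fell by 0.32, Egln2, the remaining prolyl hydroxylase, by 0.15, and Arnt, the shared partner subunit, by 0.13.

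Of 35 other genes known to respond to oxygen, 32 were tested, 5 rose and 8 fell, beside 9.4% and 11.2% of all tested genes, with a median change of 0.02. Among those that rose, Ppp1r3c, a glycogen-targeting subunit, rose by 0.76 ± 0.12, Hmox1, the haem oxygenase, by 0.54 ± 0.06 and Vldlr, a lipoprotein receptor, by 0.33 ± 0.05. The largest falls were Ppp1r3b by 0.55, Errfi1 by 0.46, Insig2 by 0.33 and Loxl2 by 0.28. Of these 32 genes 28 differed between replicate numbers, with medians of 0.36 for replicate 2 minus replicate 1 and 0.53 for replicate 3 minus replicate 1. In the lists next to the set, 0 of 4 tested genes of lactate and pyruvate transport rose and 2 fell. The latter were Slc16a7 (by 0.40) and Mpc2 (by 0.35). Of 10 tested genes of the Myc network 1 rose (Max by 0.20 ± 0.05) and 2 fell (Mxd4 by 0.43 and Mxd1 by 0.34). Both lists stand beside 9.4% of all tested genes that rose and 11.2% that fell, and are too small to set apart from these shares.

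In the authors' deposited table, 8 members had an adjusted p under 0.05 (Hk2, Pfkm, Aldoc, Pkm, Slc2a1, Bnip3, Mxi1 and Egln3), beside 23.6% of the genes tested here. These include 6 of the 7 members called above, with the same direction, and leave out Egln1, which has an adjusted p of 0.064 in the authors' deposited table.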

How the data were processed

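RNA was sequenced in 3 TNF and 3 Control libraries. The submitters' processing notes name STAR 2.6.1a and mm10. Not given in the sources used here: a counting program, an annotation, a strand setting and the model behind the authors' statistics. The authors deposited log2 CPM per library with a floor of -3.35 (0.0978 CPM), and beside them each gene's log2 fold change, likelihood ratio score, p-value and adjusted p-value. For 85.0% of genes the length counted was that of the gene from end to end, so introns were included. Counts were recovered from the deposited log2 values: 100% of 118584 values were whole reads within 1e-06. The authors' scaling was kept.

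A gene was tested where 3 libraries had 10 or more reads at median library size and the 6 together 15 or more (12293 genes). limma 3.58.1 in R 4.3.3 was fitted to log2(CPM + 1) with a trended variance, group and replicate number as terms, two-sided, adjusted over all tested genes. Its SEs lean on a variance shared between genes. On simulated data with 12293 genes, this fit recovered 64% of changes of 0.5 and 94% of changes of 1 on the log2 scale, and 7.06% of its calls were false. Smaller changes, such as those of the called members, were not simulated. Every simulated gene had the same spread beyond counting, and far fewer genes were changed than were called here. These rates may therefore differ from those of the fit on the real libraries. The replicate numbers in the titles pair the libraries: deviations from the group means correlated at 0.78, 0.79 and 0.79 for same-numbered libraries and at -0.47 to -0.34 for others. No libraries were duplicates.

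The members and gene lists were chosen with earlier results of these data known. Values in every library are given for members past the threshold, their relatives within the set, Hif1a, Gapdh, Ldha and Vegfa, and of other lists up to 4 genes per direction are named by size of change, except some that are not reported here. Promoters came from RefSeq (GRCm38.p6), and exon lengths from GENCODE M21, an addition made after the data were seen. Pfkm, Pfkp, Tpi1 and Ankrd37 were partly uncounted, and Hk1 was counted over 101794 of 111054 bases. The reason was not tested. Protein identity between relatives was planned and not run. The limit in reads for genes without a count covers counting error only. SEs come from the spread between libraries left by the fit, and SDs from the spread between the libraries of a group. Alternatives were other pseudocounts (0.1 and 5), filters, scalings, limma-voom, the deposited log2 values, no replicate block and each replicate number left out.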

Additional observations from a re-analysis of the deposited data

How the results depend on the processing

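Removing the replicate block, and so the pairing, changed most: without it limma called 53 genes over the table (44 higher and 9 lower) and 0 members in either direction. Without the filter on low genes 911 genes were called lower over the table, and 2 members were called lower. With median-of-ratios scaling 5 members were called higher, Pfkfb3 and Adm being added, beside 1290 of all 12293 tested genes. With one replicate number left out of both groups, 1781 to 2288 genes were called, 848 to 1077 higher and 933 to 1211 lower; 3 to 8 members were called higher and 2 to 4 lower. Without the filter 28 members differed between replicate numbers, and 30 did under the other settings run for that count. The cause of these shifts was not tested. Of the 7 called members, Slc2a1, Pkm, Bnip3 and Mxi1 were called in all 11 alternatives with the block, Egln3 in 10, Egln1 in 9 and Pfkm in 8. Egln3, Egln1 and Pfkm lost the call without the filter, Pfkm also without replicate 2 or 3, and Egln1 without replicate 2. Signs changed for 9 members that were never called. Pfkl was at 0.00242 with total-read scaling and 0.00584 with median-of-ratios scaling. Leaving out replicate numbers gave ranges of -0.064 to 0.0159 for Gpi1, -0.0422 to 0.0564 for Pfkl, -0.016 to 0.0371 for Gapdh, -0.0379 to 0.0724 for Pgk1, -0.0811 to 0.0266 for Ldha, -0.106 to 0.0108 for Vegfa, -0.0878 to 0.13 for P4ha1, -0.0609 to 0.0966 for Ndrg1 and -0.0331 to 0.0688 for Hif1a. Depth limits Eno2 and Car9, whose levels lie near the limit of 3 reads.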

Other observations

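Over all tested genes, 33 lay at least 2-fold below both other numbers in replicate 1, and 32 at least 2-fold above. The 33 included 8 members, Plod2, Pdk1 and Gys1 of the other oxygen-responsive list and the hepatocyte marker Cyp2e1, and the 32 included 0 members. The genes named here were chosen after their values were seen.

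Ndufa4l2, a mitochondrial protein known as a target of hypoxia-inducible factor, had 12.2, 41.2 and 49.8 CPM in TNF libraries 1 to 3 and 12.2, 57.1 and 60.3 CPM in Control libraries 1 to 3. Cyp2e1, a cytochrome P450 of the pericentral hepatocyte, had 165, 401 and 802 CPM in TNF libraries 1 to 3 and 164, 505 and 803 CPM in Control libraries 1 to 3. In both groups replicate 1 was lowest and replicate 3 highest for both genes, as for Slc16a3 and Egln3.

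Among the gluconeogenesis enzymes, which run the opposite way to glycolysis, 2 of 9 rose and 5 fell with TNF, beside 9.4% and 11.2% of all tested genes. G6pc, the last step of glucose release, had 11.9 ± 3.68 CPM with TNF and 24.5 ± 4.07 CPM in Control (SD, n = 3 each) and fell by 1.01 on the log2 scale. Slc37a4, which brings glucose 6-phosphate to it, fell by 0.78, Fbp1 by 0.44 and Gpt by 0.32. Pck2 rose by 0.25 ± 0.05 and Pcx by 0.14 ± 0.03.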
